A study of Mus musculus with 19 samples.

Results

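The transcripts described here are those of 43 genes that mark blood-borne immune cells, of 23284 genes in each of the 2 deposited expression tables. They were given as a list of gene names, drawn up with earlier results of these data known, and all 43 were found in both tables. They fall into 8 classes, namely the pan-leukocyte gene Ptprc, 10 T cell genes, 5 B cell genes, 4 genes of natural killer (NK) and cytotoxic cells, 13 macrophage and monocyte genes, 4 granulocyte genes, 4 mast cell and basophil genes, and 2 genes of dendritic cells and their progenitors.

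RNA was sequenced from 7 renal grafts, 6 prostates and 6 samples of mouse embryonic fibroblasts (MEFs). The grafts were tissue recombinants of induced epithelial (iEpt) cells, made from C57BL/6 MEFs with retroviruses for the OSKM pluripotency factors, mixed with embryonic Sprague-Dawley rat urogenital mesenchyme and grown for 6 weeks under the kidney capsule of male nude mice carrying a testosterone pellet. By the study's supplement, 5 of them (FS002, FS003, FS005, FS007 and FS008) also carried further transcription factors, introduced on lentiviruses, and the other 2 (FS022 and FS023) were iEpt only by elimination; the sample labels call all 7 renal grafts. The prostates came from wild-type C57BL/6 mice at 6 weeks of age. The MEFs came from limbs of midgestation embryos (embryonic day E13.5), pooled from males and females, and have the label genotype Nkx3-1tm2(LacZ)Mms /+. They were sorted by the study against CD45, Ter119, CD31, Mac-1 (CD11b) and EpCAM. CD45 is the product of Ptprc and CD11b that of Itgam.

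The host strain bears on how these genes are read. Nude mice (NCr Foxn1 nu/nu) lack Foxn1, the transcription factor that thymic epithelium needs, so they form no working thymus and few mature T cells, while B cells, NK cells, macrophages, granulocytes and mast cells develop without a thymus. T cells recognise antigen through a receptor that signals through the CD3 chains, Lck and Zap70, with Cd4 or Cd8 as coreceptor. B cells signal through Cd79a and Cd79b. Tissue macrophages depend on the receptor encoded by Csf1r and secrete lysozyme and C1q, the starting component of the complement cascade, and mast cells store the proteases encoded by Cpa3, Mcpt4 and Tpsb2 in their granules.

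Values are given as deposited, on a log2 scale normalized for depth but not for gene length, so levels are compared between samples and not between genes. The reads on genes, estimated from the values, ranged from 17371432 to 23446535 in the 5 grafts of the first table, from 16767295 to 22512398 in prostate and from 20418167 to 26152350 in MEFs, and were 6614582 in FS022 and 9632590 in FS023. A value of 1.68 to 2.34 corresponded to 3 reads in the first table, and 3.12 and 2.70 did so in FS022 and FS023; values below these scatter around that of 0 reads and are not read as levels. In bulk RNA, fewer cells of a type and less RNA per cell cannot be told apart, and reads from the rat cells that align to mouse genes cannot be told apart from mouse reads.

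The libraries stood apart in other ways. MEF samples FS015 and FS020 held macrophage transcripts that the other 4 MEF samples lacked or held at low levels, so results against MEFs are also given without them, and the grafts differed in how much kidney they held. The summed level of 8 kidney genes, in normalized reads, was 83804 in FS002, 1283 in FS003, 171677 in FS005, 7104 in FS007 and 161593 in FS008, against 5 to 105 in prostate, and that of 9 squamous epithelium genes was 1712 to 35576 in these grafts against 102 to 217 in prostate. The 8 endothelial genes summed to 1686 to 5654 in the grafts, 1588 to 2152 in prostate and 222 to 650 in MEFs, 8 epithelial genes to 32437 to 74600, 46619 to 65583 and 43 to 494, and 8 fibroblast genes to 13828 to 87223, 24023 to 64469 and 437401 to 635722. The 6 genes of abundant prostate secretions summed to 1124901 to 2318561 in prostate and to 1009 to 5310 in the grafts. The part of these other cells in the results below was not tested, beyond the values given without the 3 grafts richest in kidney transcripts.

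Of the 43 genes, 31 lay above the level of 3 reads in all 5 grafts of the first table, 25 in all 6 prostates and 7 in all 6 MEF samples. A single graft held 32 to 40 of them above that level, a prostate 28 to 35 and a MEF sample 11 to 15. Elane, the neutrophil elastase gene, was at or below it in all 17 samples of the first table and in both grafts of the second. Mpo, myeloperoxidase of immature granulocytes, rose above it in 1 sample, FS003.

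**Figure D1:**
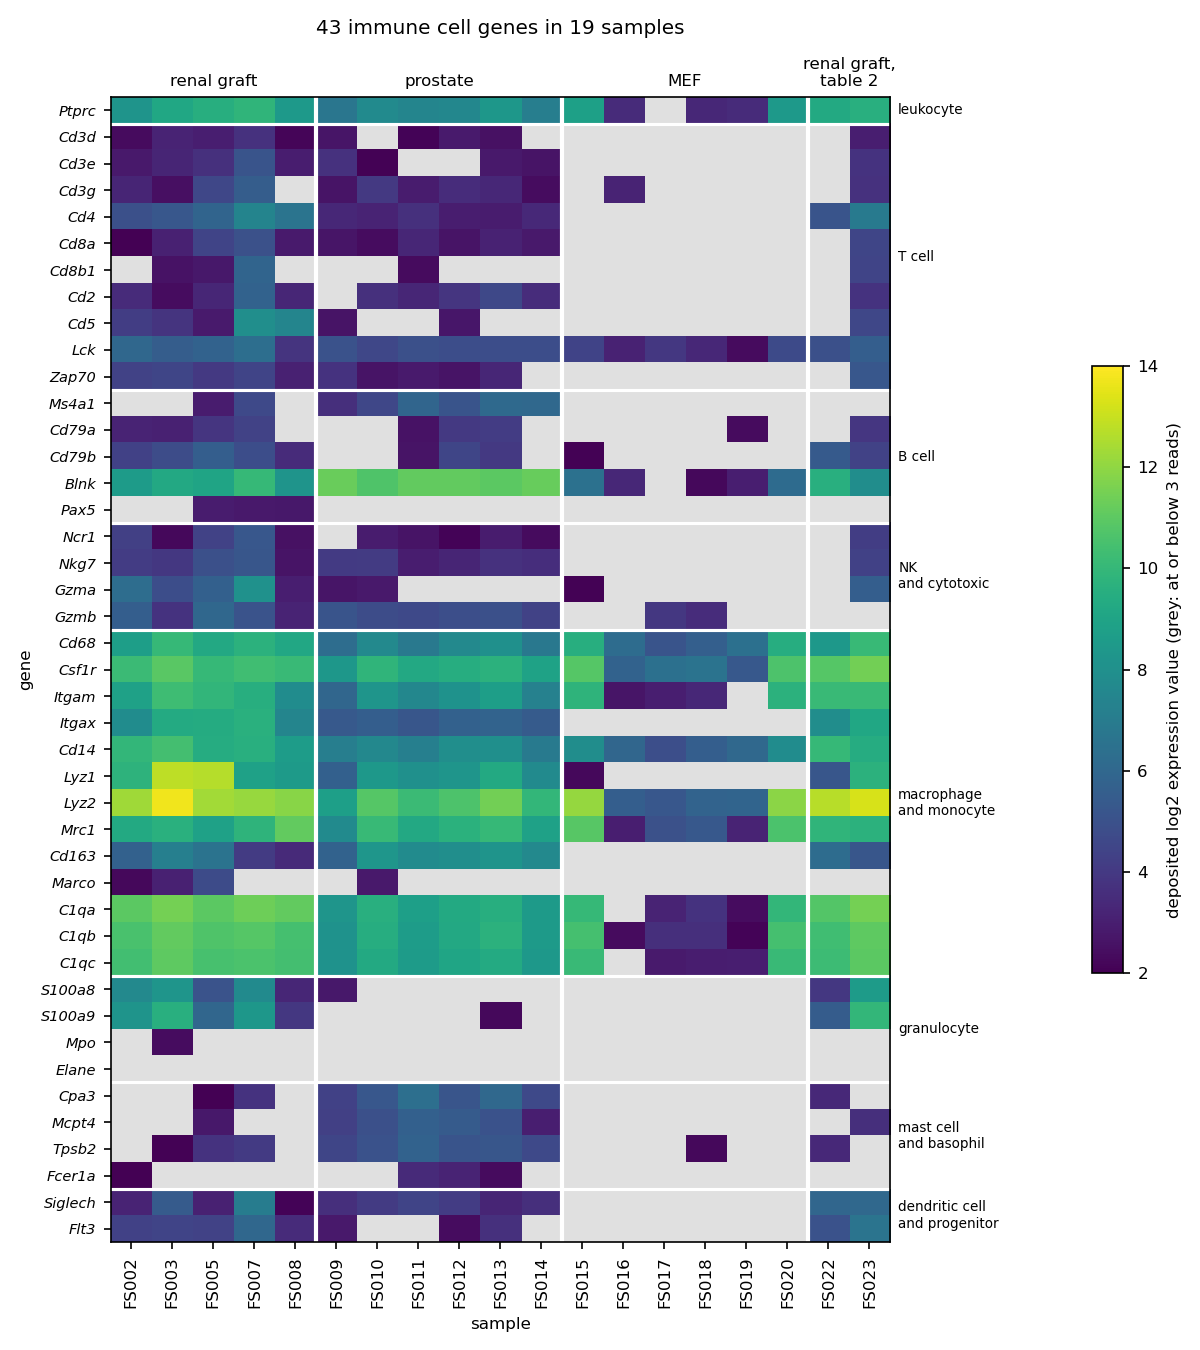
Deposited log2 expression values of the 43 immune cell genes (rows, by class) in the 19 samples (columns), with the 2 grafts of the second table at the right. Grey marks values at or below those of 3 reads; the macrophage block, apart from Marco, is filled in all grafts and prostates and is filled in large part in MEF samples FS015 and FS020, and the mast cell block is filled in the prostates apart from Fcer1a in 3 of them.

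In grafts against prostate (5 against 6 samples), Ptprc, 10 of the 12 macrophage genes tested and the granulocyte genes S100a8 and S100a9 were called higher in the grafts, while Cd163 and all 3 mast cell genes tested were called lower. Of the 7 T cell genes tested, 3 were called higher and 4 were not called. Tests used limma over all genes whose mean linear value reached 10, and a gene was called when its Benjamini-Hochberg adjusted p was under 0.05 and it moved by 1 or more on the log2 scale in either direction. Of the 43 genes 34 could be tested, of which 19 were called higher, 6 lower and 9 neither, where 23% of all 16353 genes tested were called higher and 10.3% lower, 33.3% in all. The median log2 fold change was 1.41 over these 34 genes and 0.11 over all tested. A gene can pass the filter through the group where it is high, so these counts describe the 34 and not all 43. In 13 of the 34 every graft lay above every prostate and in 4 every graft lay below, against 19.8% and 17.3% of all genes. Without grafts FS002, FS005 and FS008, which hold the most kidney transcripts, 20 were called higher and 4 lower, among the genes that passed the filter in that fit. Quantile normalization, which moved the median of all genes from 0.11 to -0.12 and the calls over all genes from 3757 higher and 1683 lower to 2671 and 3243, left 13 of the 34 higher and 7 lower.

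**Figure D2:**
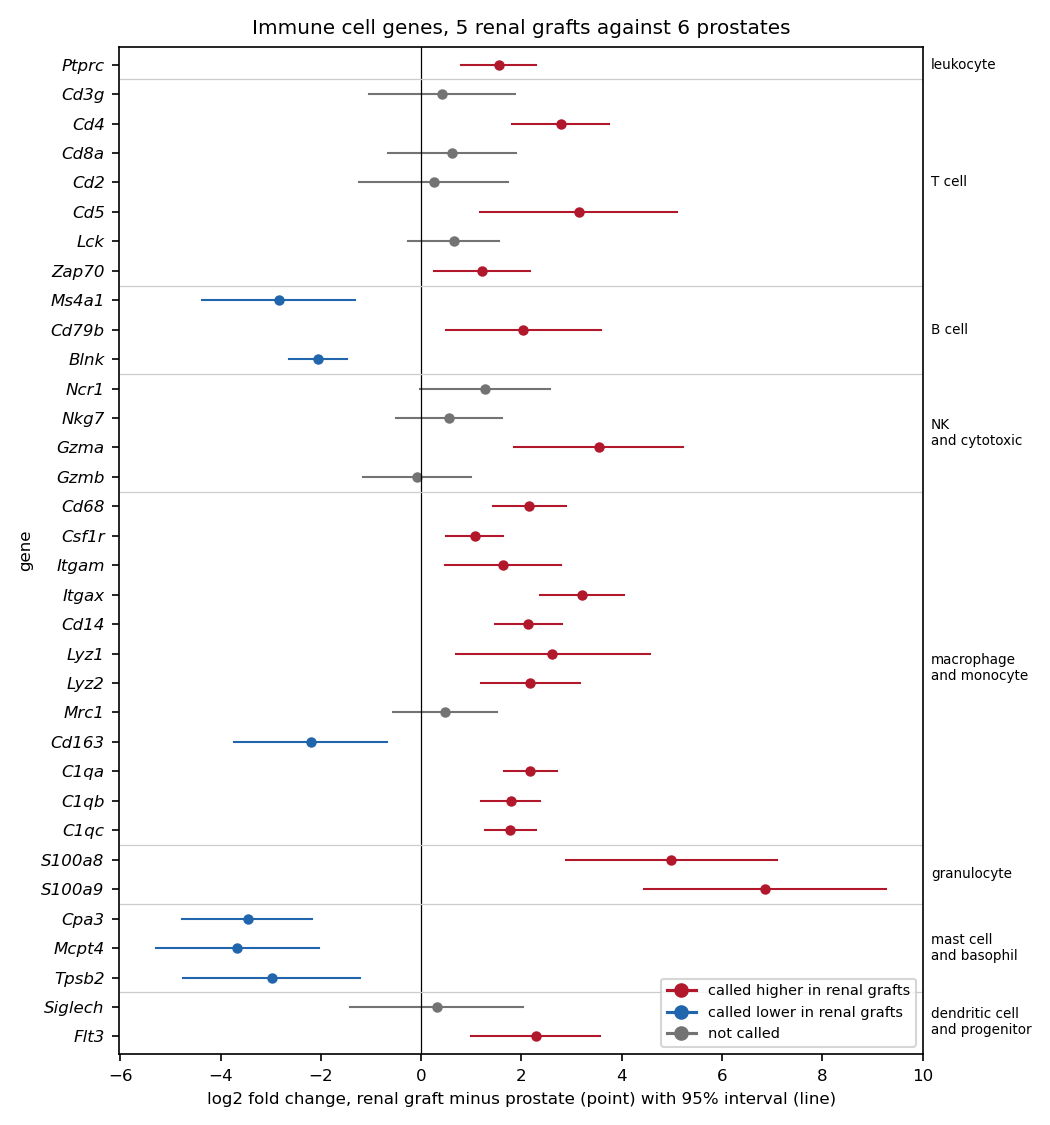
Log2 fold change (points, horizontal axis) with its 95% interval (lines) for each of the 34 genes tested in 5 renal grafts against 6 prostates, grouped by class. Genes called higher are red, genes called lower blue and the rest grey; 10 of the 12 macrophage genes tested are red and all 3 mast cell genes tested are blue.

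Ptprc, which encodes the phosphatase CD45 on the surface of all nucleated blood cells, had values of 8.23, 9.14, 9.54, 9.85 and 8.47 in the 5 grafts, given here and below in the order FS002, FS003, FS005, FS007, FS008. The prostates ranged from 6.71 to 8.37 with a median of 7.52. The lowest graft overlapped the highest prostate, and the log2 fold change was 1.55 ± 0.34 (SE), with an adjusted p of 0.00271 by limma. Ptprc lost the call when the 3 groups were fitted together (adjusted p = 0.222), a fit in which the spread among MEFs enters the error; without MEF samples FS015 and FS020 that fit gave 0.00625.

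Of 13 macrophage and monocyte genes, 12 could be tested, and 10 were higher in the grafts. The 3 genes of the C1q chains lie side by side on chromosome 4 of mm9, C1qb from 136436044 to 136442102, C1qc from 136445719 to 136448980 and C1qa from 136451832 to 136454718. C1qa had values of 10.98, 11.48, 10.96, 11.35 and 11.10 in the grafts and 8.26 to 9.55 (median 9.03) in prostate. C1qb and C1qc ranged from 10.48 to 11.13 and from 10.38 to 11.01 in the grafts, and from 8.12 to 9.73 and 8.12 to 9.33 in prostate. All grafts lay above all prostates for all 3, and their graft SDs (0.23, 0.26 and 0.25) were the smallest among the 43 genes. The log2 fold changes were 2.18 ± 0.24, 1.79 ± 0.27 and 1.78 ± 0.23 (SE), with adjusted p of 2.38e-05, 0.000234 and 6.86e-05 by limma.

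Itgax, which encodes the CD11c integrin of dendritic cells and some macrophages, and Itgam, which encodes CD11b of macrophages and granulocytes, are neighbours and were both higher in the grafts. In mm9 Itgam lies on chromosome 7 from 135206154 to 135271674 and Itgax from 135273061 to 135294171. Itgax had values of 7.84, 9.33, 9.37, 9.60 and 7.48 in the grafts, all above prostate (5.20 to 5.81, median 5.51), with a log2 fold change of 3.21 ± 0.38 (adjusted p = 4.34e-05 by limma). Itgam had 8.85, 10.27, 9.89, 9.51 and 7.85 in the grafts and 5.95 to 8.73 in prostate, with 1.63 ± 0.53 (adjusted p = 0.0209); it lost the call without FS003 (0.0524) or FS005 (0.0507). The difference between the 2 fold changes was not tested.

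Cd68, a lysosomal membrane protein of macrophages, and Cd14, which binds bacterial lipopolysaccharide, were higher by 2.16 ± 0.33 and 2.14 ± 0.31 on the log2 scale (adjusted p = 0.000224 and 0.000144 by limma), with no overlap between grafts and prostates. Csf1r ranged from 10.04 to 10.94 in the grafts and from 8.36 to 9.83 in prostate, a log2 fold change of 1.07 ± 0.26 (adjusted p = 0.00462), which fell under the minimum fold change without FS003 (0.91) or FS009 (0.89). Lyz1 and Lyz2 encode 2 near-identical lysozymes in tandem on chromosome 10, so reads may be split between them. Lyz2 had 12.31, 13.72, 12.32, 12.16 and 11.87 in the grafts, all above prostate (8.77 to 11.43), with 2.17 ± 0.45 (adjusted p = 0.00178). Lyz1 stood high in FS003 (12.79) and FS005 (12.66) and at 8.56 to 9.75 in the other 3 grafts, against 5.67 to 9.29 in prostate; its 2.62 ± 0.88 (adjusted p = 0.0253) lost the call without FS003 (0.0613), FS005 (0.0638) or FS009 (0.0514). As with Ptprc, the calls of C1qa, C1qb, C1qc, Csf1r, Itgam and Lyz2 were lost in 1 fit over the 3 groups (adjusted p of 0.117 to 0.304) and held there once FS015 and FS020 were left out (3.11e-05 to 0.0167).

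Cd163 and Mrc1 did not rise. Cd163, a scavenger receptor for haemoglobin, had 5.72, 7.17, 6.59, 4.07 and 3.44 in the grafts and 5.77 to 8.29 (median 7.86) in prostate. It was lower by -2.20 ± 0.70 (adjusted p = 0.0186 by limma), and without the 3 kidney-rich grafts by -1.98, no longer called (adjusted p = 0.085). Mrc1, the mannose receptor, ranged from 8.85 to 11.14 in the grafts and from 7.74 to 10.08 in prostate, with 0.47 ± 0.48, a 95% interval of -0.57 to 1.51 and no call (adjusted p = 0.414). Marco, a scavenger receptor, was above the 3-read level in 3 grafts and 1 prostate and was not tested.

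The wider list of 31 macrophage and monocyte genes held genes that moved both ways. Of 28 tested, 23 were called higher and 4 lower, with a median log2 fold change of 2.20. By size the leading genes were Trem2, a lipid receptor of macrophages, which was higher by 4.21 ± 0.31 (adjusted p = 1.62e-06 by limma), Cd209f, a lectin, lower by -4.56 ± 0.69 (0.000228), and Retnla, a product of alternatively activated macrophages, lower by -4.54 ± 1.33 (0.0128). Retnla ranged from -0.44 to 8.28 over the grafts, and its fold change was -3.11 without FS008 and -5.29 without FS003. Arg1 and Chi3l3, which alternatively activated macrophages also make, went the other way. They were higher by 3.63 ± 0.63 (adjusted p = 0.000554 by limma) and 2.98 ± 0.71 (0.00408), and were named after their values were seen. This list, like the other wider lists below, was drawn up with earlier results of these data known. The counts of all these lists stand beside the 23% called higher and 10.3% lower over all genes tested.

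**Figure D3:**
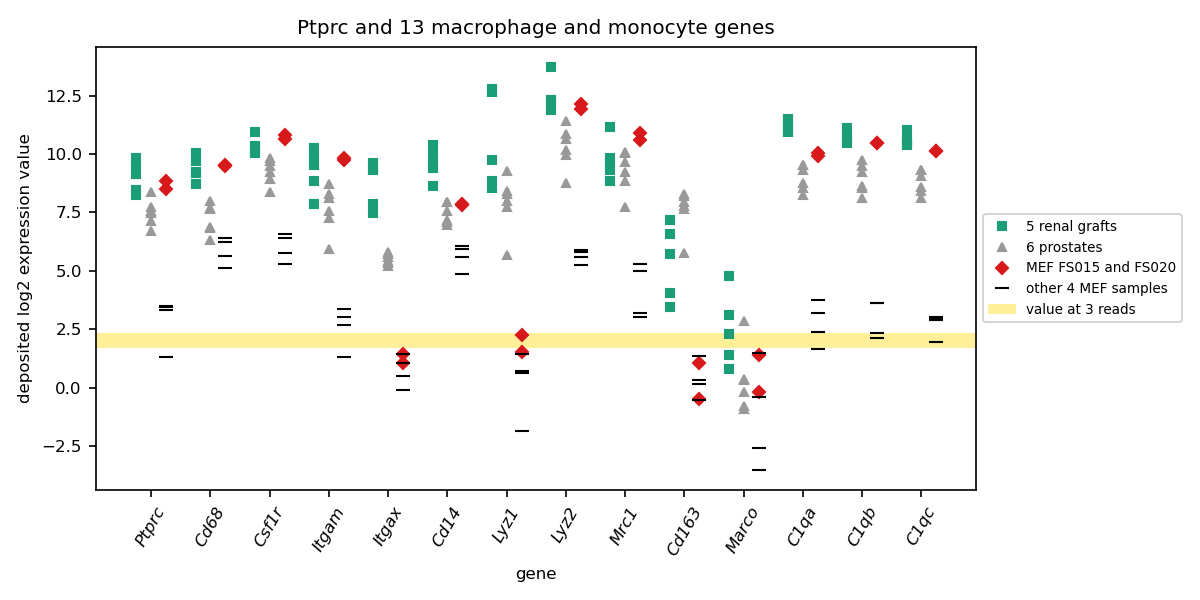
Deposited log2 values of Ptprc and the 13 macrophage and monocyte genes (horizontal axis), 1 symbol per sample, with the band of values that correspond to 3 reads in yellow. Grafts lie above prostates for most genes and, for Cd163, lower with some overlap. MEF samples FS015 and FS020 lie with the grafts and prostates for Ptprc, Csf1r, Itgam, Lyz2, Mrc1 and the C1q genes, and with the other 4 MEF samples for Itgax, Cd163 and Marco.

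Granulocyte transcripts differed by gene. S100a8 and S100a9, neighbours on chromosome 3 that encode the calcium-binding pair calprotectin of neutrophils and of stressed squamous epithelium, had values of 7.64, 8.25, 5.09, 7.76 and 3.30, and of 8.21, 9.58, 5.94, 8.35 and 3.96 in FS002, FS003, FS005, FS007 and FS008. In prostate S100a8 rose above 3 reads in 1 sample, FS009 (2.75), and S100a9 in 1, FS013 (2.25). No graft overlapped a prostate. The log2 fold changes of 4.99 ± 0.96 and 6.86 ± 1.10 (adjusted p = 0.00109 and 0.000335 by limma) rest on prostate values that scatter around 0 reads, so their size is uncertain. Without FS008, the lowest graft, they were 5.77 and 7.67, and S100a9 had 6.27 without FS003 and 6.23 without FS014. The squamous sum was 29249, 22663, 5204, 35576 and 1712 in the same grafts, and its part in S100a8 and S100a9 was not tested. Mpo and Elane were too low to test.

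Of 19 genes in the wider granulocyte list, 10 were tested, with 5 called higher and 1 lower. The leading 3 were Cxcr2, a chemokine receptor of neutrophils, at 5.13 ± 0.99 (adjusted p = 0.00116 by limma), Trem1, an activating receptor of neutrophils and monocytes, at 4.68 ± 0.66 (0.000139), and Stfa3, a stefin, at 4.30 ± 1.19 (0.0095). Cxcr2 had 5.09, 7.63, 4.32, 5.36 and 2.34 in the grafts. Cxcr2 and Stfa3 were at or below 3 reads in all prostates, so the size of their changes is uncertain. S100a8, S100a9, Cxcr2 and Stfa3 were all lowest in FS008 among the grafts, and without it the fold changes of Cxcr2 and Stfa3 were 5.78 and 5.26. Without FS003 that of Cxcr2 was 4.46.

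Mast cell transcripts went the other way. Cpa3, the mast cell carboxypeptidase, had 1.41, 1.38, 1.94, 3.75 and 0.72 in the grafts and 4.31 to 6.39 (median 5.21) in prostate. Mcpt4, a chymase, had -0.37, 1.68, 2.76, 1.85 and -0.68 against 2.99 to 5.69, and Tpsb2, a tryptase, 1.53, 2.06, 3.75, 4.04 and -1.05 against 4.50 to 5.78. All prostates lay above 3 reads and above all grafts for the 3 genes, while 3, 4 and 2 of the 5 grafts lay at or below 3 reads. The log2 fold changes were -3.46 ± 0.59, -3.67 ± 0.74 and -2.98 ± 0.81 (adjusted p = 0.000503, 0.00152 and 0.00854 by limma), and that of Tpsb2 was -2.20 without FS008. Fcer1a, a chain of the IgE receptor, was above 3 reads in 1 graft and 3 prostates and was not tested. Summed over the 4 genes, the level was 0 to 30 normalized reads in the grafts and 56 to 196 in prostate.

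The wider mast cell list did not move as a block. Of 14 genes 6 were tested, 3 higher and 2 lower. The largest changes were in Hdc, the histamine-forming enzyme, at 4.40 ± 0.83 (adjusted p = 0.000977 by limma), Mcpt1, a mucosal mast cell chymase, at 4.29 ± 1.06 (0.00521), and Kit, the stem cell factor receptor, at 3.51 ± 0.32 (6.08e-06). Hdc had 8.67, 9.76, 8.19, 12.01 and 13.19 in the grafts, with a fold change of 3.70 without FS008, and Hdc and Kit are also expressed outside mast cells. Mcpt1 stood at 7.40 in FS005 and at 1.33 to 3.81 in the other 4 grafts, and without FS005 it was too low to test. It was at or below 3 reads in all prostates.

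**Figure D4:**
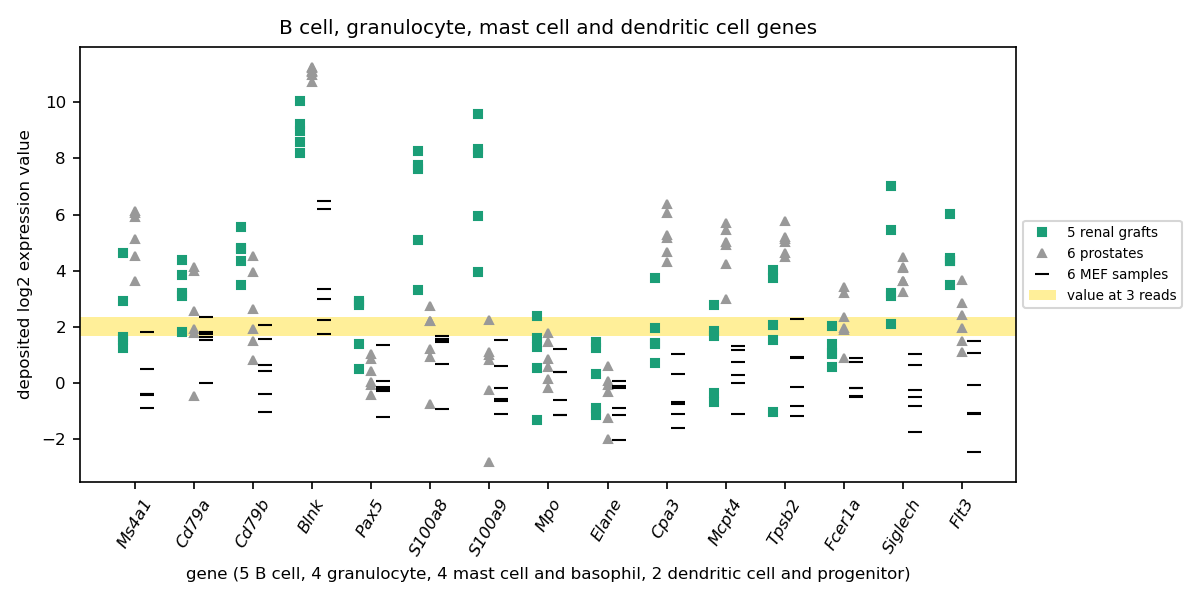
Deposited log2 values of the B cell, granulocyte, mast cell and dendritic cell genes (horizontal axis), 1 symbol per sample, with the band of values that correspond to 3 reads in yellow. The grafts lie above the prostates for S100a8 and S100a9 and below them for Blnk, Cpa3, Mcpt4 and Tpsb2; MEF samples reach above the band mainly for Blnk.

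T cell transcripts were low in most samples, and their summed level was 150 to 741 normalized reads in the grafts against 68 to 94 in prostate. Cd4 and Cd5, which other cells also carry, gave most of the sum in FS007 and FS008. Their estimated reads were 202 and 293 in FS007 and 108 and 198 in FS008, where Cd3d, Cd3g and Lck had 3, 3 and 14. The sum therefore does not show more T cell RNA in every graft. Cd3g, Cd3d and Cd3e, the genes of the CD3 chains, lie together on chromosome 9 of mm9, from 44777655 to 44788514, 44789876 to 44795135 and 44806826 to 44817673. Cd3e had 2.84, 3.26, 3.68, 5.10 and 2.95 in the grafts and 0.84 to 3.72 in prostate, and Cd3d 2.15 to 3.73 and 1.67 to 2.86; both were too low to test. Cd3g (0.42, 95% interval -1.03 to 1.87), Cd8a (0.61, -0.66 to 1.89), Cd2 (0.25, -1.24 to 1.74) and Lck (0.65, -0.26 to 1.55) were not called, with adjusted p of 0.202 to 0.770 by limma, and their fold changes turned negative with quantile normalization. Cd8b1 was above 3 reads in 3 grafts and 1 prostate.

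Of the 7 T cell genes tested, 3 were called higher in the grafts. Cd4, the coreceptor of helper T cells that some dendritic cells and macrophages also carry, had 4.91, 5.28, 5.87, 7.41 and 6.62 in the grafts, all above prostate (2.91 to 3.68), with a log2 fold change of 2.78 ± 0.44 (adjusted p = 0.000318 by limma). Cd5, a regulator of antigen receptor signals on T cells and some B cells, had 4.19, 3.79, 2.87, 7.94 and 7.48 against 1.41 to 2.74, with 3.15 ± 0.90 (adjusted p = 0.0111). FS007 and FS008 stood apart from the other 3 grafts for Cd5, and without FS007 its fold change was 2.48 and without FS005 3.74. Cd5 was at or below 3 reads in 4 of the 6 prostates, so the size of its change is uncertain. Zap70, the kinase of the T cell receptor, was higher by 1.22 ± 0.44 (adjusted p = 0.0334); the call was lost when any 1 of 8 of the 11 samples was left out, FS002, FS003, FS005, FS007, FS010, FS011, FS012 and FS014 (adjusted p of 0.0535 to 0.0716). Under quantile normalization Cd4 and Cd5 kept their direction without a call (1.34 and 1.92, adjusted p = 0.149 and 0.172), and Zap70 turned to -0.21.

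FS007 carried the most lymphoid transcripts. It held the highest value of the 5 grafts for 9 of the 10 T cell genes, 3 of the 5 B cell genes, 3 of the 4 NK and cytotoxic genes and both dendritic cell genes, whereas FS003 held the highest value for 10 of the 13 macrophage genes. Summed over the 10 T cell genes, FS007 had 741 normalized reads and the other 4 grafts 150 to 320, sums in which Cd4 and Cd5 weigh as given above. Its genes for both Cd8 chains were at 4.98 and 5.87, and Cd2 at 5.75. FS008 held the lowest graft value for 27 of the 42 genes that passed 3 reads in any graft. In the order FS002, FS003, FS005, FS007, FS008, the T cell sums were 158, 150, 203, 741 and 320. The kidney sums were 83804, 1283, 171677, 7104 and 161593 in the same order. A relation between the kidney sum and these genes was not tested.

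**Figure D5:**
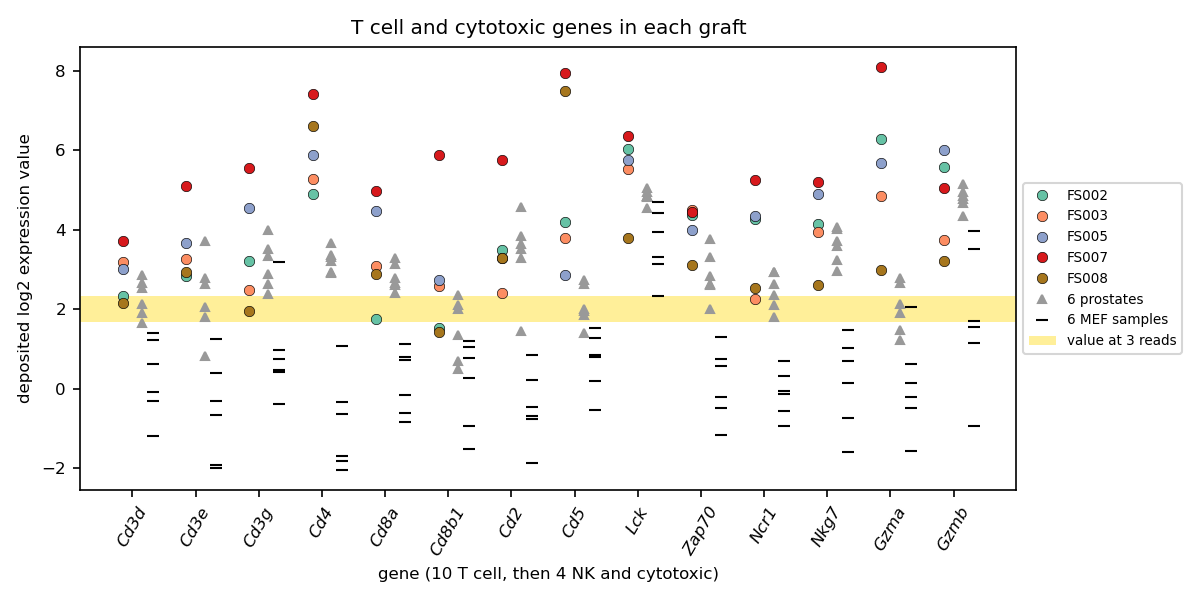
Deposited log2 values of the 10 T cell genes and 4 NK and cytotoxic genes (horizontal axis), with each graft in its own colour, prostates as grey triangles, MEF samples as black bars and the band of values that correspond to 3 reads in yellow. FS007 is the highest graft for 9 of the 10 T cell genes, and Cd5 is high in FS007 and FS008 only.

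In the wider list of 23 T cell genes, 10 were tested, with 4 called higher and 1 lower. Bcl11b, a transcription factor of T cells and of skin, rose by 4.57 ± 0.53 (adjusted p = 3.62e-05 by limma), Il7r, the interleukin-7 receptor of lymphocytes, by 3.60 ± 0.59 (0.00036), and Themis, a T cell signalling protein, by 2.57 ± 0.90 (0.0296). Themis, like Cd5, stood high in FS007 (6.58) and FS008 (5.98), with 1.94 to 2.81 in the other 3 grafts. It was at or below 3 reads in 5 of the 6 prostates, so the size of its change is uncertain. Its call was lost without FS008 (0.0677), FS010 (0.0543), FS011 (0.0539), FS012 (0.0544) or FS013 (0.055) and with quantile normalization (0.204). The recombinase genes Rag1 and Rag2 and Ptcra, which mark developing thymocytes, were at or below 3 reads in all 5 grafts, while Dntt, which encodes the terminal transferase of developing lymphocytes, was above 3 reads in FS007 (4.21) and FS003 (1.83). Foxp3 and Ctla4, genes of regulatory T cells, had 4.80 each in FS007, against 1.20 to 1.70 and -0.39 to 1.88 in the other grafts of the first table. Foxp3 was also above 3 reads in FS022 of the second table (3.48, as deposited) and in MEF sample FS018 (2.63). Foxp3, Ctla4, Rag1, Rag2, Ptcra and Dntt were named after their values were seen.

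NK and cytotoxic transcripts were low as well. Gzma, which encodes granzyme A, had 6.28, 4.84, 5.69, 8.09 and 2.99 in the grafts, all above prostate (1.22 to 2.80), with 3.54 ± 0.77 (adjusted p = 0.00242 by limma); the fold change was 2.91 without FS007 and 4.19 without FS008. Under quantile normalization it was 2.12, with an adjusted p of 0.0533. Ncr1, the NK receptor NKp46, had 2.27 to 5.25 in the grafts and 1.82 to 2.93 in prostate, with 1.27 ± 0.59 and no call (adjusted p = 0.0871), a call it gained without FS003 (0.0311) or FS008 (0.0383). Nkg7 of cytotoxic granules (0.56, 95% interval -0.50 to 1.62) and Gzmb, granzyme B (-0.08, -1.16 to 1.00), were not called, but with quantile normalization Nkg7 turned to -0.76 and Gzmb was called lower (-1.36, adjusted p = 0.0195). The wider list of 16 genes gave 9 tested, 3 higher and 2 lower, led by Eomes, a transcription factor of NK and memory T cells, at 5.08 ± 0.58 (adjusted p = 3.07e-05), Prf1, perforin, at 2.21 ± 0.84 (0.0424, lost without FS005 at 0.106, FS007 at 0.0656 or any 1 prostate at 0.0509 to 0.0849, and 2.91 without FS008) and Cd160 at -1.95 ± 0.38 (0.00113). Eomes was also above 3 reads in all 6 MEF samples (3.66 to 6.13), where Ncr1 and Nkg7 lay at or below that level. In prostate Eomes was at or below 3 reads in all 6 samples, and Gzma and Prf1 in 4 of the 6. The size of these 3 changes is therefore uncertain.

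B cell genes split. Ms4a1, which encodes CD20 of mature B cells, had 1.25, 1.64, 2.93, 4.64 and 1.52 in the grafts, 3 of them at or below 3 reads, and 3.63 to 6.12 (median 5.52) in prostate, with -2.83 ± 0.70 (adjusted p = 0.00498 by limma). Cd79b went the other way, with 4.34, 4.79, 5.57, 4.82 and 3.48 in the grafts against 0.81 to 4.52 in prostate and 2.04 ± 0.71 (adjusted p = 0.0282); the call was lost without FS003 (0.0528), FS005 (0.0695), FS009 (0.0584), FS010 (0.0569) or FS014 (0.0572) and with quantile normalization (0.57, 0.461). Cd79a, the partner of Cd79b, was above 3 reads in 4 grafts and 3 prostates and was not tested, and Pax5, the transcription factor of B cell identity, was above 3 reads in 3 grafts and in no prostate. Blnk, an adaptor of B cells and macrophages, was at 8.19 to 10.04 in the grafts and 10.71 to 11.27 in prostate, and was lower in the grafts by -2.06 ± 0.27 (adjusted p = 7.97e-05). Among prostates, FS009 had the highest Blnk (11.27) and the lowest Ms4a1 (3.63), Ptprc (6.71), Csf1r (8.36) and C1qa (8.26). Which cells gave the Blnk transcripts of prostate was not tested, so they are not read as a B cell level. Without the 3 kidney-rich grafts, Ms4a1 and Cd79b had -2.09 and 2.25 without a call (adjusted p = 0.0863 and 0.0935).

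In the wider B cell and plasma cell list 7 of 17 genes were tested, with 3 higher and 1 lower. They were led by Cd22, a lectin of B cells, at 4.81 ± 0.62 (adjusted p = 7.32e-05 by limma), Mzb1 of plasma cells, listed as 2010001M09Rik, at 3.35 ± 0.68 (0.00156, 2.65 without FS007 and with the call lost at 1.89 and 0.109 under quantile normalization), and Bank1 at -1.51 ± 0.47 (0.0174). Cd22 was at 5.87 to 6.77 in all 5 grafts and at or below 3 reads in 4 of the 6 prostates, so the size of its change is uncertain.

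Of the 2 dendritic cell genes, Flt3, a cytokine receptor of dendritic cell progenitors, was higher in the grafts (3.49 to 6.01 against 1.10 to 3.67) by 2.29 ± 0.59 (adjusted p = 0.00638 by limma), a call lost with quantile normalization (0.86, 0.278). Siglech, a lectin of plasmacytoid dendritic cells, had 3.19, 5.45, 3.10, 7.03 and 2.10 in the grafts and 3.24 to 4.48 in prostate, with 0.31 ± 0.79 and a 95% interval of -1.42 to 2.03. Its direction turned without FS003 (-0.01) or FS007 (-0.41) and with quantile normalization (-0.81), while without the 3 kidney-rich grafts it was called higher (2.37, adjusted p = 0.00575). All 17 genes of the wider dendritic cell and MHC class II list were tested, with 9 higher and 2 lower. The largest changes were in Ly6d, at 5.45 ± 0.47 (4.56e-06), which squamous epithelium also makes, Ccr7, a homing receptor of migrating dendritic cells and lymphocytes, at 3.76 ± 0.89 (0.00398), and Cd83, a marker of mature dendritic cells, at 2.24 ± 0.27 (4.87e-05). Ccr7 lost its call with quantile normalization (2.33, 0.0572) and Cd83 in 1 fit over the 3 groups (0.0736).

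Grafts FS022 and FS023 were in the second table, normalized apart, and were set beside the other 5 after shifting each sample by its median difference over the genes above 5 in every sample; no test was made. FS023 lay above all 5 grafts for 8 of the 43 genes, within their range for 25, below for 1 and at or below 3 reads for 9. FS022, the shallowest sample, lay within the range for 18, below for 5 and at or below 3 reads for 20, among them 8 of the 10 T cell genes, which is not detectable at its depth rather than absent. On this shared scale Ptprc was 9.40 and 9.70 in FS022 and FS023, within the 8.31 to 9.84 of the other 5, and Cd4 was 5.20 and 7.02, within 4.99 to 7.40. S100a9 was 5.58 in FS022 and 10.05 in FS023, against 3.97 to 9.66. Lyz1 was 5.29 in FS022, below the 8.56 to 12.87 of the others. Over the 43 genes, the median difference from the mean of the 5 grafts was -0.53 in FS022 and 0.27 in FS023. These medians include the 20 and 9 genes at or below 3 reads, so depth enters them and they are not read as differences in level.

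The MEFs had been sorted against leukocytes, and 24 of the 43 genes lay at or below 3 reads in all 6 samples, among them 8 of the 10 T cell genes, all 4 granulocyte genes and both dendritic cell genes. Lck was above 3 reads in all 6 (2.33 to 4.70). MEF samples FS015 and FS020, however, held macrophage transcripts. Ptprc was 8.83 in FS015 and 8.50 in FS020, and 3.47, 1.31, 3.32 and 3.48 in FS016 to FS019. Itgam was 9.81 and 9.73 in the pair and 1.29 to 3.35 in the other 4. C1qa, C1qb and C1qc were 9.93 to 10.46 in the pair and 1.64 to 3.75 in the others, and Lyz2 11.91 to 12.12 against 5.26 to 5.88. For 9 of the 43 genes, Ptprc, Cd68, Csf1r, Itgam, Lyz2, Mrc1, C1qa, C1qb and C1qc, both samples lay more than 3 log2 units above all of the other 4.

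The macrophage transcripts of the pair were not the full set. Itgax (1.07 and 1.42), Cd163 (1.05 and -0.50) and Marco (-0.21 and 1.41) were at or below 3 reads in both, as were Cd3e, Ms4a1, S100a8, Cpa3 and Siglech. Of the 31 genes in the wider macrophage list, 18 showed the same gap of more than 3, with Emr1 (F4/80) at 9.85 and 9.72 against 0.98 to 3.70 and Sfpi1 (PU.1, a master transcription factor of macrophages) at 7.75 and 7.59 against -0.54 to 2.37; the monocyte gene Ccr2 was at or below 3 reads in all 6 MEF samples. FS015 and FS020 also resemble each other over all genes (Spearman 0.997, against 0.943 to 0.961 with the other 4), and so do FS016 with FS019 (0.997) and FS017 with FS018 (0.998), so the 6 samples form 3 close pairs. By a robust estimate from the median absolute deviation, samples of a pair differed by 1.78 to 2.04 times the variance that sampling of reads gives. Between pairs it was 14.5 to 20.7 times. The plain variance gave 2.16 to 3.1 times within pairs and 43.2 to 60.3 times between them. The MEFs were kept as 6 samples because they differed by more than sampling, which does not show that they are independent cultures. Pairs of prostates differed by 4.28 to 18 times by the robust estimate, more than the samples of a MEF pair. The p-values against MEFs treat the 6 as independent. Counts from fits with each pair averaged, a setting chosen after seeing the data, stand beside the main ones. Prostate secretion transcripts were also found in MEFs, at a median of 0.182% of their prostate level in FS015 and 0% in FS020.

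For the genes that rise together in FS015 and FS020, the stretch of promoter nearest the start site that holds GAGGAA, the letters bound by PU.1 and other ETS factors, is shown to let the sequences be compared. RefSeq promoters (GRCm38.p6, 250 bases before to 50 after the start) were matched for 7 of the 9 genes and 6 hold GAGGAA or its reverse complement TTCCTC; Lyz2 does not. The capitals mark the match, read 5′ to 3′ on the strand of the gene.
Ptprc (chr1:138175446-138175475, minus strand): tgttttcctttaGAGGAAaattgagacgaa
Itgam (chr7:128062613-128062642, plus strand): tctcatagctttTTCCTCatacttctctgt
Mrc1 (chr2:14229367-14229396, plus strand): aaaagggacagcTTCCTCtgtcctcctttt
C1qb (chr4:136886213-136886242, minus strand): gcagcaggatggGAGGAAcagaggggtgat
C1qc (chr4:136893090-136893119, minus strand): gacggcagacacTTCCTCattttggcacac
Cd68 (chr11:69666124-69666153, minus strand): gaggcttttcatTTCCTCttccaagagaag

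The match starts 158, 15, 35, 30 and 193 bases before the start site in the first 5 and 29 bases after it in Cd68. GAGGAA or TTCCTC occurs in 28.3% of all 27025 promoters of this length, in 6 of 10 promoters matched among the macrophage genes and in 6 of 7 among the T cell genes. A match is a description of letters and not a binding site.

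In grafts against MEFs (5 against 6 samples), 25 of the 43 genes were tested, 24 were called higher and none lower, where 29.9% of all 16121 genes tested were called higher and 12% lower, 41.9% in all. In 17 of the 25 no graft overlapped a MEF sample, against 28.4% of all genes. Genes at or below 3 reads in all MEF samples, such as Cd4 and Itgax, could pass the filter only through the grafts and could hardly be lower. Both counts describe the 25 and not all 43. The median log2 fold change was 4.71 over the 25, or 4.06 with genes at or below 3 reads in all MEF samples set to the level of 3 reads, and 0.26 over all genes. The filter was applied again where samples were left out or averaged, so counts from such fits are of a changed set of tested genes, not of the 25. Without FS015 and FS020 the count was 28, and without grafts FS002, FS005 and FS008 it was 13. Without FS015 to FS018 it was 17, and C1qa (adjusted p = 0.0553), C1qb (0.102), C1qc (0.0881), Cd5 (0.0706), Cd68 (0.178), Csf1r (0.167), Itgam (0.173), Lck (0.135), Lyz2 (0.0878), Ptprc (0.0874) and Siglech (0.104) lost their calls. With each MEF pair averaged it was 24, but Csf1r (0.0549), Itgam (0.0545) and Lck (0.0579) lost theirs, while genes newly past the filter were called. With quantile normalization Cd5 (2.90, 0.056) and Gzmb (0.66, 0.585) were among those lost. Quantile normalization moved the calls over all genes from 4815 higher and 1942 lower to 3025 and 3641, and the median from 0.26 to -0.14, and left 21 of the 25 higher.

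The largest change was in Lyz1, at 9.75 ± 0.96 (adjusted p = 6.8e-06 by limma), followed by Itgax at 7.83 ± 0.49 (3.11e-07), S100a9 at 7.28 ± 0.95 (5.42e-05) and Cd4 at 6.92 ± 0.71 (9.59e-06), all with MEF values near 0 reads, which leaves their size uncertain. Cd163, lower in grafts than in prostate, was higher in grafts than in MEFs by 5.09 ± 0.75 (0.000128). The genes found in FS015 and FS020 had wide errors. C1qa was higher by 6.02 ± 1.54 (0.00515), Ptprc by 4.23 ± 1.28 (0.0127), Itgam by 4.29 ± 1.57 (0.0308) and Csf1r by 2.73 ± 1.01 (0.0325), and Mrc1 was not called at 3.42 ± 1.46 (0.0579). Leaving out 1 sample at a time, FS015 or FS020 raised the fold changes of C1qa, C1qb, C1qc, Csf1r, Itgam, Lyz2 and Ptprc by more than 1.5 times, to 6.99 and 6.97 for C1qa, and FS016, FS017 or FS019 lowered some of them, to 5.31 for C1qa without FS016, 4.65 for C1qb and 3.55 for Itgam without FS019 and 3.53 for Ptprc without FS017. Without FS015 alone or FS020 alone Mrc1 was called, at 4.33 (0.0123) and 4.27 (0.0159). Csf1r lost its call without any 1 of 8 samples (FS002, FS003, FS005, FS007 and FS016 to FS019, 0.0505 to 0.0687), Itgam without any 1 of 7 (FS003, FS005, FS007 and FS016 to FS019, 0.0527 to 0.0644) and Cd68, at 2.32 ± 0.81 (0.0255), without any 1 of 5 (FS003 and FS016 to FS019, 0.0508 to 0.0567).

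In prostate against MEFs (6 against 6 samples), 20 genes were tested, 14 were called higher and none lower, where 27.8% of all 14560 genes tested were called higher and 20.5% lower, 48.3% in all. In 9 of the 20 no prostate overlapped a MEF sample, against 37.4% of all genes. Here too, genes at or below 3 reads in all MEF samples, such as Ms4a1 and Cpa3, could pass the filter only through the prostates. Both counts describe the 20. The median was 3.58, or 3.09 with genes at or below 3 reads set to that level, and 0.17 over all genes. Quantile normalization moved the median of all genes to 0.01 and left 11 higher, with Ptprc (0.0953), C1qb (0.0553) and Lck (0.04, 0.888) losing their calls. As above, counts with samples left out or averaged are of the genes past the filter in that fit. Without FS015 to FS018 the count was 11, and C1qa (0.114), C1qb (0.171), C1qc (0.178) and Ptprc (0.212) lost theirs. With MEF pairs averaged it was 14, with Ptprc at 0.0503. Cd163 at 7.29 ± 0.47 (adjusted p = 1.06e-08 by limma), Blnk at 7.23 ± 0.74 (9.69e-07), Lyz1 at 7.12 ± 0.70 (5.83e-07), Cpa3 at 5.77 ± 0.52 (2.53e-07), Ms4a1 at 5.21 ± 0.56 (1.5e-06), Tpsb2 at 4.73 ± 0.55 (3.03e-06), Itgax at 4.62 ± 0.31 (1.42e-08) and Mcpt4 at 4.31 ± 0.54 (6.12e-06) led the list, and no prostate overlapped a MEF sample for these genes.

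In that comparison, 6 of the 12 macrophage genes tested were called and 6 were not. With all MEF samples, Cd68 (0.16 ± 0.75), Csf1r (1.66 ± 0.92), Itgam (2.67 ± 1.42), Cd14 (1.09 ± 0.48), Lyz2 (2.54 ± 1.25) and Mrc1 (2.95 ± 1.33) had adjusted p of 0.0514 to 0.852 by limma. With FS015 and FS020 left out, all 6 were called, at 1.38, 3.23, 5.06, 1.84, 4.67 and 5.15, with adjusted p of 7.85e-07 to 0.0041. Without FS019 the count of calls was 9, since C1qa (0.0527), C1qb (0.0882), C1qc (0.0671), Ptprc (0.0891) and Lck (a fold change of 0.93) dropped out. Without FS015 alone or FS020 alone it was 19, and without both it was 20. The calls of C1qa (3.83 ± 1.40, 0.0226), C1qb (3.53 ± 1.46, 0.039) and C1qc (3.62 ± 1.42, 0.031) rested on single samples too, being lost without FS016 (0.0529) or FS019 for C1qa, without any 1 of FS010 to FS014 or FS016 to FS019 for C1qb (0.0543 to 0.0882) and without any 1 of FS010, FS012, FS013 or FS016 to FS019 for C1qc (0.0519 to 0.0715). Ptprc, called at 2.68 ± 1.15 (0.0458), lost its call without any 1 of FS009 to FS014 or FS016 to FS019 (0.0538 to 0.101).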

How the data were processed

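RNA was sequenced from 7 renal grafts, 6 prostates and 6 MEF samples with an unstranded kit. The deposited values are log2 expression values that the authors normalized for depth, in 2 tables normalized separately, so tests were made within the first table (5 grafts, 6 prostates, 6 MEF samples) and FS022 and FS023 of the second were only set beside it. The submitters' processing notes name bcl2fastq 1.8.4, TopHat, Cufflinks and DESeq without their roles, and coordinates are of mm9. All columns had a sample (0 did not).

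Reads per gene were estimated from the spacing of the deposited values, with 3 reads taken as the lowest level read. Each pair of groups was fitted with limma 3.58.1 in R 4.3.3 (eBayes with trend, Benjamini-Hochberg adjustment over all genes tested). Genes whose mean linear value reached 10 were tested, and calls needed an adjusted p under 0.05 and a move of 1 or more on the log2 scale in either direction. In simulated data where 200 genes were changed by 2.5 log2 units, 161 were recovered in grafts against prostate with 11 false calls over 16353 genes, 157 with 8 in grafts against MEFs over 16121, and 180 with 3 in prostate against MEFs over 14560. The simulated samples were independent, with 1 spread per gene. They lacked the MEF pairs and the split of FS015 and FS020, so these counts cannot show the error rate against MEFs. Summaries used Python 3.11.15 and pandas 2.3.3.

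All 43 genes are named. Of each wider list the counts called and up to 3 called genes with the largest absolute change per comparison are named. The 43 genes and the wider lists were chosen with earlier results of these data known. Groups came from the sample labels, which do not say whether samples are separate animals or cultures, so p-values measure only the spread between these samples, which may be technical. The alternatives were other filters, fold minimums, pseudocounts, normalizations, fits and samples left out. Fits without FS015 and FS020, with MEF pairs averaged, and without grafts FS002, FS005 and FS008 were chosen after seeing the data. In the wider lists Ly6g was not matched, and Spi1 and Siglecf were listed as Sfpi1 and Siglec5. Some items are not reported here.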

Additional observations from a re-analysis of the deposited data

Results flagged for a closer look

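In 4 of 101 sets of samples that were examined, made of 1 gene in 1 group each, the highest or lowest sample lay far from the rest by Dixon's test, where chance gives about 5. Lyz2 was at 13.72 in graft FS003 and at 11.87 to 12.32 in the other 4 grafts. Cd163 was at 5.77 in prostate FS009 and at 7.65 to 8.29 in the other 5. Marco was at 2.83 in prostate FS010 and at -0.92 to 0.35, below the level of 3 reads, in the others. Cd79a was at -0.02 in MEF sample FS017 and at 1.53 to 2.35 in the others, a range around the level of 3 reads.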

How the results depend on the processing

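No paired analysis was possible because the labels give the groups no shared replicate numbers. Of the 43 genes, 25 were called in grafts against prostate, 24 in grafts against MEFs and 14 in prostate against MEFs. With a filter of at least 50 the counts were 15, 14 and 7, which tests fewer genes. Without a filter the counts against MEFs were 38 and 28, and without grafts FS002, FS005 and FS008 that of grafts against MEFs was 13. In grafts against prostate, 1 fit over 3 groups left 12 called higher (19 otherwise), and the filter of at least 50 left 2 called lower (6 otherwise). Leaving out 1 sample at a time gave 21 to 27, 19 to 26 and 9 to 19 calls, among the genes that then passed the filter. In grafts against prostate, quantile normalization turned Cd2 to -0.79, Cd3g to -0.70, Cd8a to -0.53, Lck to -0.70, Nkg7 to -0.76, Siglech to -0.81 and Zap70 to -0.21. Gzmb turned to 0.01 with a pseudocount of 8, 0.17 without FS003 and 0.30 without FS008, the highest of a range from -0.40. Siglech turned to -0.01 without FS003 and -0.41 without FS007, and Cd2 to -0.28 without FS007 and -0.13 without FS009, where the highest values with 1 sample left out were 0.82 and 0.56. Quantile normalization also turned Lck to -0.66 in grafts against MEFs and Cd68 to -0.32 in prostate against MEFs. There Cd68 was also at -0.01 without FS016, -0.23 without FS017, -0.13 without FS018, up to 0.65 without FS015, and -0.73 without FS015 to FS018. The cause was not tested. Apart from single samples left out, 892 fold changes of the 43 genes kept direction and call, 63 lost the call, 14 gained one and 11 turned; with 1 sample left out, the counts were 785, 69, 15 and 9. Over all genes, quantile normalization gave 3243 lower in grafts against prostate (1683 otherwise) and 3025 higher and 3641 lower in grafts against MEFs (4815 and 1942), and the share higher among calls went from 69.1% to 45.2%, 71.3% to 45.4% and 57.6% to 49.8% over the 3 comparisons. The median differences of FS022 (-0.53) and FS023 (0.27) moved to -0.58 and 0.20 with no scaling. Genes near 3 reads are limited by depth, above all in FS022, and they enter these medians.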

Other observations

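Growth factors and chemokines for these cells were measured in the same samples. Of 37 listed, 30 were tested in grafts against prostate, with 10 higher and 1 lower by limma. Over all genes tested there, 23% were called higher and 10.3% lower. Cxcl5, a neutrophil-attracting chemokine, had 7.46, 8.67, 7.34, 7.64 and 2.00 in the grafts against -0.53 to 2.34 in prostate, a log2 fold change of 5.07 ± 1.08 (adjusted p = 0.00206) and 6.23 without FS008. Ccl8, which attracts monocytes, was higher by 4.33 ± 0.70 (0.000342) and Ccl20, which attracts immature dendritic cells and some lymphocytes, by 3.65 ± 0.91 (0.00536). The gene called lower was Il15, a growth factor of NK cells, at 6.33 to 6.70 in the grafts and 8.76 to 9.54 in prostate. Csf1, the macrophage growth factor and named after its values were seen, was at 8.34 to 9.62 in grafts, 8.21 to 9.18 in prostate and 11.81 to 14.69 in MEFs. Against MEFs, this list gave 15 higher and 5 lower of 30 in grafts, led by Pigr at 9.63, Ccl8 at 6.37 and Cxcl9 at 5.44, and 10 higher and 8 lower of 29 in prostate, led by Pigr at 10.73, Cxcl5 at -8.22 and Cxcl13 at 6.90. Over all genes tested, 29.9% were called higher and 12% lower in grafts against MEFs, and 27.8% and 20.5% in prostate against MEFs. These shares stand beside the lists below as well.

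MHC class II genes, which present antigen to helper T cells, were high in both tissues against MEFs. In the wider dendritic cell list 14 of 16 were called higher in grafts, led by Ly6d at 10.66 ± 0.73, H2-Aa at 10.23 ± 0.95 and Cd74 at 9.46 ± 0.47, and 13 of 15 higher and 1 lower in prostate, led by H2-Aa at 9.26 ± 0.81, Cd74 at 7.50 ± 0.39 and H2-Ab1 at 6.42 ± 0.20. The wider macrophage list gave 25 of 27 higher in grafts against MEFs, led by Clec7a at 7.08, Ccr2 at 6.69 and Ctss at 6.58, and 12 higher and 1 lower of 27 in prostate, led by Retnla at 8.97, Ccr2 at 6.85 and Cd209f at 5.30. The granulocyte list gave 7 of 8 higher in grafts, led by Il1b at 7.16, Csf3r at 6.45 and Cxcr2 at 4.54, and 2 of 3 in prostate, Mmp8 at 5.01 and Il5ra at 4.66.

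Some genes listed for lymphoid and mast cells were lower in prostate, in grafts or in both than in MEFs. Il1rl1, the interleukin-33 receptor of mast cells that fibroblasts also express, was lower by -9.38 ± 0.50 in grafts and by -8.31 ± 0.50 in prostate, Mcpt8 by -7.23 ± 0.50 in prostate, Thy1 by -4.23 ± 0.66 and -2.96 ± 0.16, and Bcl11b by -4.11 ± 0.27 in prostate, whereas grafts (5.65 to 8.31) and MEFs (6.34 to 6.92) overlapped for Bcl11b. The other leading genes were Hdc at 10.02 and Kit at 6.42 in grafts and Hdc at 5.62 in prostate for mast cells, Il7r at 4.53 and Themis at 2.95 in grafts and Tcf7 at 1.63 in prostate for T cells. Il7r lost its call in grafts against MEFs with quantile normalization (adjusted p = 0.0741 by limma) and without FS015 to FS018 (0.0868). Themis lost it there with quantile normalization (0.357), with MEF pairs averaged (0.0794), without FS015 to FS018 (0.27), without FS015 and FS020 (0.0659) and without FS008 (0.0516). For B cells they were Cd22 at 5.87, Igj at 5.70 and 2010001M09Rik at 4.73 in grafts and Igj at 3.79, Cd37 at 2.38 and Bank1 at 2.35 in prostate, with calls lost under quantile normalization for 2010001M09Rik (0.051) and Cd37 (0.0645), and for Cd37 also without FS015 to FS018 (0.128). For NK cells they were Klrk1 at 5.27, Il2rb at 4.89 and Prf1 at 4.19 in grafts and Cd226 at 4.64, Il2rb at 4.12 and Cd160 at 3.31 in prostate. Counts higher and lower in grafts and in prostate were 4 and 1 of 9 and 2 and 3 of 7 for T cells, 4 and 0 of 5 and 3 and 0 of 4 for B cells, 5 and 0 of 6 and 4 and 1 of 5 for NK cells, and 3 and 2 of 6 and 3 and 2 of 5 for mast cells. They stand beside the shares over all genes given above.

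Thymic epithelium genes summed to 262 to 1223 normalized reads in the grafts, 180 to 265 in prostate and 40 to 54 in MEFs, with Psmb11, a proteasome gene of thymic cortex, at or below 3 reads in all 7 grafts. Red cell genes summed to 173 to 329 in the 5 grafts, 180 to 259 in prostate and 16 to 29 in MEFs, and to 2142 in FS022. Bone and marrow stroma genes summed to 893 to 2367, 361 to 465 and 1528 to 2779.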
